A study of Rattus norvegicus with 24 samples.

Results

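The Dlx homeobox genes and the transcription factors that act beside them in the ganglionic eminences were examined in rat pups of embryonic day 18, in dissected tissue that joined the developing neocortex and hippocampus. The 6 genes, chosen by symbol, were Dlx1, Dlx2, Dlx5, Dlx6, Gsx2 and Sp9. A total of 5 of them were found among the 17420 rows of the expression table, and Dlx6 was not analysed here. Of these, 4 had a mean above 1 TPM (a read share scaled for gene length and library size) in every group, the limit used in the study's own gene filter, and were tested together with the 5086 genes that passed it. Gsx2 fell below that limit and was tested on its own.

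The pups came from Sprague-Dawley dams in 4 groups of 6 pups, each group made up of 2 litters with 3 pups per litter. Saline dams were injected on gestational day 17, as were MAM dams, which received 22 mg/kg methylazoxymethanol acetate, an alkylating agent that disturbs dividing neural progenitors, and Poly I:C dams, which received 7.5 mg/kg of a double-stranded RNA mimic that provokes a maternal immune response. Tissue of these 3 groups was taken 18 hours after the injection. Low Protein dams ate a diet of 6.1% protein until the day of dissection, and the control diet held 20.3% protein. The diet of the dams injected with MAM or Poly I:C is not labelled, nor is any injection of the Low Protein dams. Pups are named by group, litter and pup, so that Saline 2-1 is the first pup of the second saline litter. The dam was the treated unit, so p-values over pups measure the spread between pups of only 2 litters a group, and all 3 comparisons used the same saline pups.

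The ganglionic eminences are swellings of the ventral embryonic forebrain that supply it with inhibitory neurons. Some of these stay to form the striatum, others reach the olfactory bulb, and interneurons travel dorsally to populate the cortical wall. Gsx2 is a homeobox gene of dividing progenitors, chiefly in the lateral ganglionic eminence. Dlx1 and Dlx2 follow it in late progenitors and new-born neurons, and they activate the linked pair Dlx5 and Dlx6. Sp9 encodes a zinc finger protein that is made in the same lineage and is needed for striatal neurons and for some interneurons. Cortical projection neurons arise from the pallium and do not use this programme.

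Dlx1 and Dlx2 lie next to each other on chromosome 3 of the rat, Dlx5 and Dlx6 are neighbours on chromosome 4, and 11 protein-coding genes separate Dlx2 from Sp9. RefSeq promoter sequences on the GRCr8 build were at hand for 3 of the 6 genes. The 250 bases before each of these start sites are printed 5′ to 3′, and no link between their letters and the levels of the genes was tested. Capitals mark the letters TATAAA, or CCAAT on either strand. The Dlx1 window is chr3:76763614-76763863 on the plus strand, that of Sp9 is chr3:78554095-78554344 on the plus strand, and that of Gsx2 is chr14:33480321-33480570 on the minus strand.
Dlx1: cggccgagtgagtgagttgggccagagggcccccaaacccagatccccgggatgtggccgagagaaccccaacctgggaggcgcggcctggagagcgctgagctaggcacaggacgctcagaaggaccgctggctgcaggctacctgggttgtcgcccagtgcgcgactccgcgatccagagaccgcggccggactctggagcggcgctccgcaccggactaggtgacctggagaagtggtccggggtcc
Sp9: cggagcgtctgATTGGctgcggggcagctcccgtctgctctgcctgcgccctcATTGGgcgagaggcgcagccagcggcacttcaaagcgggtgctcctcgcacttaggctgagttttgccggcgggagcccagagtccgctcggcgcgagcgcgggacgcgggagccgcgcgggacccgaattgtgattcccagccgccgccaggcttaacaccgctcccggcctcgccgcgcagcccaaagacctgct
Gsx2: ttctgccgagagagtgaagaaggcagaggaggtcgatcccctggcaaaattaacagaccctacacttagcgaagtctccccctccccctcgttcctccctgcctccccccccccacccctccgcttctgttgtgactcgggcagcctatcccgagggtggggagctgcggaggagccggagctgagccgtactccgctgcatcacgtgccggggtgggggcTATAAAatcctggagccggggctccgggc

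These windows were rich in G and C, at 69.2% for Dlx1, 70.4% for Sp9 and 64.8% for Gsx2, whereas the median of 33469 rat promoters of the same length was 51.2%. Both strands were searched for 4 short motifs that do not overlap one another in these windows. TATAAA occurred once, from base -29 to base -24 of Gsx2, where -1 is the last base before the start site, and it occurred in 12.9% of all promoters. CCAAT occurred in reverse as ATTGG at 2 places in Sp9, with 34.0% of all promoters holding it. The homeodomain core TAATTA, present in 4.86% of promoters, and the GC box GGGCGG, present in 30.5%, had no match in the 3 windows, which says only that these letters are absent from them.

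The libraries held between 24.4 M and 63.3 M estimated reads per pup, recovered only approximately from the step between low values. Markers of the pallium summed to between 241 and 363 TPM in 23 pups and to 169 TPM in Saline 2-1. The striatal markers listed for comparison summed to between 9.82 and 22.2 TPM in the same 23 pups and to 33.3 TPM in Saline 2-1. Saline 2-1 was therefore the lowest of all pups in the pallial list and the highest in the striatal list, and results that rest on it are given with and without it. The lowest sum of the striatal list, 9.82 TPM, was found in Low Protein 1-1.

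Dlx1 was the most abundant member in all 24 pups, with a mean of 28.4 TPM over the pups, and Dlx2 came second in all 24 with 13.0 TPM. Dlx5 and Sp9 followed at means of 5.76 and 5.36 TPM. Dlx5 was the third gene in 16 pups and Sp9 in the others, so these neighbours in the order did not differ beyond their spread. Gsx2 was the lowest in every pup, at 0.819 TPM. The TPM values are scaled by a gene's length along the genome, introns included, which bears on any comparison between genes. On this scale the mean of Dlx1 exceeded that of 98.1% of the rows of the table, and the mean of Gsx2 exceeded 67.0%. The scaling gives genes of short span more TPM per read, and the measured members span only 2353 bases (Gsx2) to 4591 bases (Dlx1). These shares are therefore not ranks by read number.

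**Figure D1:**
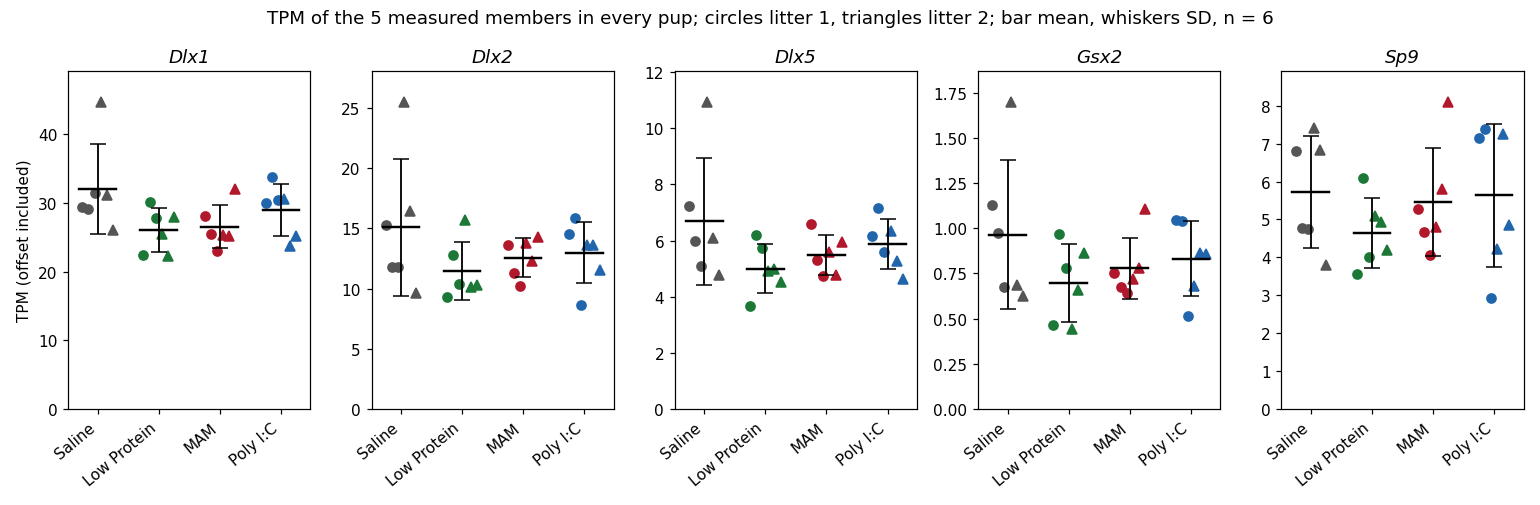
TPM of each measured gene (vertical axis, starting at 0) in every pup of the 4 groups, with circles for litter 1, triangles for litter 2, a bar for the mean and whiskers for the SD. Saline 2-1 is the highest point for Dlx1 (44.8 TPM), Dlx2 (25.5 TPM), Dlx5 (11.0 TPM) and Gsx2 (1.70 TPM), and all groups overlap in every panel.

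Gsx2, which gives lateral ganglionic eminence progenitors their identity, was the member with the fewest reads. Its level in saline pups ran from 0.627 TPM through a median of 0.830 to 1.70 TPM. In Low Protein pups it ran from 0.445 TPM through a median of 0.720 to 0.971 TPM. These ranges overlapped, and the 2 lowest pups of the study, Low Protein 2-1 and Low Protein 1-1, belonged to the Low Protein group. MAM pups ranged from 0.639 to 1.11 TPM with a median of 0.737 TPM, and Poly I:C pups ranged from 0.512 to 1.04 TPM with a median of 0.860 TPM. The median of Poly I:C pups was thus above that of the saline pups, although their mean was below it. The log2 difference from saline was -0.43 in Low Protein pups (exact two-sided permutation test, p = 0.175), -0.24 in MAM pups (p = 0.403) and -0.16 in Poly I:C pups (p = 0.597). None of these differences was larger than the spread between pups, and without Saline 2-1 they were -0.25, -0.05 and 0.022. An estimated 84.6 reads stood behind the median Gsx2 value, from 43.6 to 159.6, so counting alone gives a coefficient of variation of about 10.9%, against 21.6 to 42.6% between pups of a group.

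Dlx1, a factor of new-born and migrating GABAergic neurons, was lower in the Low Protein and MAM groups before adjustment for the number of genes. Saline pups ranged from 26.1 TPM through a median of 30.3 to 44.8 TPM. Low Protein pups ranged from 22.3 TPM through a median of 26.7 to 30.2 TPM. All 6 Low Protein pups lay below the saline median, and 3 of them lay below the lowest saline pup. The Low Protein mean was 82.0% of the saline mean on the log scale, a log2 difference of -0.29 ± 0.11 (SE). The unadjusted p from limma was 0.0173 and the exact permutation p was 0.0411, but after Benjamini-Hochberg adjustment over all genes tested the limma p was 0.543. In bulk tissue, fewer cells of a type and less RNA per cell cannot be told apart, for this gene and for those that follow.

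In MAM pups Dlx1 ranged from 23.0 TPM through a median of 25.4 to 32.0 TPM. The groups overlapped, with 4 MAM pups below the lowest saline pup and 1, MAM 2-3, above the saline median. The log2 difference was -0.26 ± 0.11 (SE), with an unadjusted limma p of 0.0300, an exact permutation p of 0.0476 and an adjusted limma p of 0.416. With median of ratios scaling the unadjusted limma p was 0.0593. In Poly I:C pups Dlx1 ranged from 23.8 TPM through a median of 30.2 to 33.8 TPM, close to the saline median. Its log2 difference of -0.13 had a 95% confidence interval from -0.37 to 0.10, which includes no change as well as a level of 77.6% of saline. The Poly I:C litters had mean TPM values of 31.4 and 26.5.

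Dlx2, the partner of Dlx1 in late progenitors, varied more between pups. Saline pups ranged from 9.65 TPM through a median of 13.5 to 25.5 TPM. The Low Protein pups ranged from 9.31 to 15.7 TPM around a median of 10.4 TPM. A total of 5 Low Protein pups lay below the saline median, and Low Protein 2-1 lay above it. The log2 difference of -0.35 ± 0.18 (SE) did not pass, with an unadjusted limma p of 0.0685 and an adjusted limma p of 0.610. MAM pups, from 10.2 to 14.3 TPM with a median of 13.0 TPM, and Poly I:C pups, from 8.67 to 15.9 TPM with a median of 13.6 TPM, had medians close to that of the saline pups. Their log2 differences were -0.20 (95% confidence interval -0.57 to 0.18) and -0.17 (-0.54 to 0.21). Without Saline 2-1 the Dlx2 differences were -0.18 for Low Protein, -0.03 for MAM and -0.0013 for Poly I:C. The Low Protein difference passed in limma with a replicate block on the pup number (unadjusted p of 0.0301, adjusted p of 0.366). Same-numbered pups of different groups came from different dams, so the design gives no ground for that block. On litter means the difference also passed in limma (0.0176 and 0.854). Both settings left its size as it was. The share of all genes called under them is not given, so these calls are not results about Dlx2.

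Dlx5, a target of Dlx1 and Dlx2 in maturing GABAergic neurons, had its largest difference in the Low Protein group. Saline pups ranged from 4.79 TPM through a median of 6.04 to 11.0 TPM. Low Protein pups ranged from 3.68 TPM through a median of 4.95 to 6.19 TPM. The lowest value of the study belonged to Low Protein 1-1, and only Low Protein 1-2 exceeded the saline median. The log2 difference was -0.38 ± 0.16 (SE), or 76.9% of saline, with an unadjusted limma p of 0.0232, an adjusted limma p of 0.546 and an exact permutation p of 0.0801. The limma and permutation tests thus fell on different sides of 0.05. MAM pups ranged from 4.74 to 6.57 TPM with a median of 5.47 TPM, a log2 difference of -0.23 (95% confidence interval -0.56 to 0.09). Poly I:C pups ranged from 4.64 to 7.17 TPM with a median of 5.89 TPM, a log2 difference of -0.14 (-0.47 to 0.18).

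Sp9 had the widest spread of the 4 tested genes when the groups were pooled, with an SD of 0.40 on the log2 scale within groups, although Dlx2 and Dlx5 varied more among the saline pups. Saline pups ranged from 3.79 TPM through a median of 5.78 to 7.41 TPM. Low Protein pups ranged from 3.55 TPM through a median of 4.55 to 6.09 TPM, a log2 difference of -0.28 (95% confidence interval -0.72 to 0.16, limma, adjusted p = 0.736). MAM 2-3 held the highest value of the study at 8.11 TPM and Poly I:C 1-3 the lowest at 2.93 TPM. MAM pups had a median of 5.05 TPM and Poly I:C pups a median of 6.00 TPM, and the log2 differences from saline of these groups, both -0.06, had confidence intervals of about -0.50 to 0.38. Levels from 70.6% to 130.1% of saline lie within that interval for MAM pups.

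Across the 4 tested genes, 2 (Dlx1 and Dlx5) were lower in Low Protein pups at an unadjusted p under 0.05, beside 4.58% of all genes tested. In MAM pups 1 gene (Dlx1) was lower, beside 8.18% of all genes, and in Poly I:C pups none was, beside 5.70%. The MAM comparison had 416 genes lower and 156 higher, which became 199 and 306 with median of ratios scaling, when no member was called. No member passed an adjusted p of 0.05 in limma in any of the comparisons with saline, and the share of all genes that did was 0% for Low Protein, 0.0197% for MAM and 0% for Poly I:C. No member had treated and saline pups that did not overlap, as 0.747% of genes did in the Low Protein comparison, 0.786% in the MAM comparison and 0.492% in the Poly I:C comparison. The log2 difference from saline was below 0 for all 4 genes in all 3 comparisons, which share the saline pups, as it was for 52.2% of all genes tested in the Low Protein, 67.9% in the MAM and 46.8% in the Poly I:C comparison. Without Saline 2-1 it was above 0 for Sp9 after MAM (0.022) and for Dlx5 (0.010) and Sp9 (0.025) after Poly I:C. The median difference of the 4 genes was -0.32 for the Low Protein diet, -0.22 after MAM and -0.14 after Poly I:C, and over all genes tested the medians were -0.0054, -0.05 and 0.0081.

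The treatments were not told apart by these genes. Over the 4 groups the limma F test called 0 of the 4 members, Dlx1 having the lowest unadjusted p of 0.0655 (adjusted p = 0.338), while 16.4% of all genes passed at an unadjusted p under 0.05. No member passed that threshold between MAM and Low Protein, where 11.0% of genes did, between Poly I:C and Low Protein, where 5.31% did, or between Poly I:C and MAM, where 23.1% did. The largest of these differences among the tested members was that of Dlx5, 0.24 higher on the log2 scale in Poly I:C than in Low Protein pups, with a 95% confidence interval from -0.09 to 0.56.

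The calls against saline depended on single pups, above all on Saline 2-1. Without Saline 2-1, none of the 4 genes passed an unadjusted p of 0.05 in any comparison, against 2.89% of all genes lower with the Low Protein diet, 13% with MAM and 4.01% with Poly I:C. The Dlx1 log2 difference became -0.19 in Low Protein pups (95% confidence interval -0.39 to 0.02) and -0.16 in MAM pups (-0.36 to 0.04). Dlx5 became -0.23 in Low Protein pups (-0.49 to 0.04). The median of the 4 genes then stood at -0.19 for Low Protein, -0.06 for MAM and 0.0044 for Poly I:C. The Dlx5 call was also lost without Low Protein 1-1, where the difference was -0.29. The Dlx1 call in the MAM group was lost without any 1 of MAM 1-2, 1-3, 2-1 and 2-2, with differences from -0.25 to -0.22. Conversely, Dlx2 passed in Low Protein pups without Saline 1-2, Saline 1-3, Saline 2-3 or Low Protein 2-1, at -0.46 to -0.40, but no adjusted p did. The part of the lower pallial and higher striatal marker content of Saline 2-1 in these results was not tested.

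**Figure D2:**
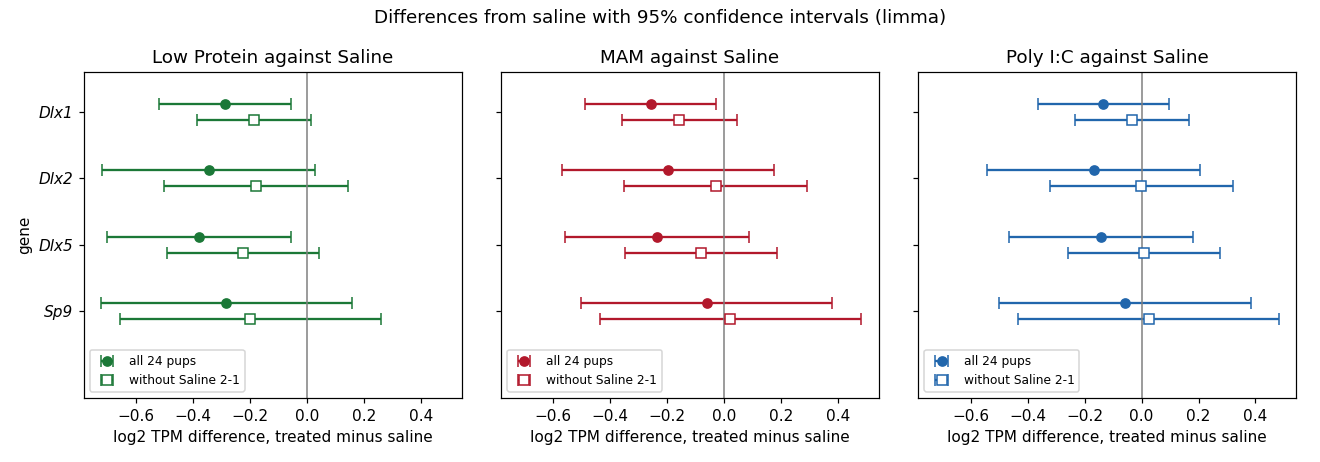
Log2 difference in TPM from saline (horizontal axis) with 95% confidence intervals from limma for the 4 tested genes, with all pups (filled circles) and without Saline 2-1 (open squares). Dlx1 in the Low Protein and MAM groups and Dlx5 in the Low Protein group have intervals that lie below 0 with all pups, and every interval includes 0 without Saline 2-1.

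Pooled over the groups, litters of a group lay close together compared with the pups inside them. The SD of log2 TPM was 0.21 within litters and 0.20 within groups for Dlx1, 0.36 and 0.34 for Dlx2, 0.31 and 0.29 for Dlx5, 0.48 and 0.44 for Gsx2, and 0.43 and 0.40 for Sp9. Pups of a litter were therefore as far apart as pups of a group. For Dlx1 the 2 saline litters had mean log2 TPM levels of 4.91 and 5.05, the Low Protein litters 4.74 and 4.65, and the MAM litters 4.67 and 4.78. The Poly I:C litters, at 4.97 and 4.72, were further apart than the SD within litters. Both Low Protein and both MAM litters stood below both saline litters, and with 2 litters against 2 an exact permutation test cannot give a p under 0.333. Without Saline 2-1 the second saline litter stood at 4.83, still above them. Of the Dlx2 litter means, the Low Protein ones were 10.8 and 12.1 TPM and the saline ones 13.0 and 17.2 TPM, the latter becoming 13.0 TPM without Saline 2-1. The Gsx2 litter means of saline were 0.927 and 1.00 TPM and those of Low Protein 0.739 and 0.656 TPM, but without Saline 2-1 the second saline litter was at 0.655 TPM, no higher than the Low Protein litters.

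The members tended to go up and down together from pup to pup, most plainly in the pups at the extremes. Saline 2-1 ranked first of the 24 pups for Dlx1, Dlx2, Dlx5 and Gsx2 and second for Sp9. Low Protein 1-1 was among the lowest 3 pups for all 5 genes, and Poly I:C 1-2 was among the highest 3 for 4 of them. Poly I:C 1-3 departed from this order, as it ranked last for Dlx2 and Sp9 and 22nd for Gsx2, yet 7th for Dlx1. Its log2 ratio of Dlx1 over Dlx2 was 1.81, the highest of all pups, while the group means of this ratio lay between 1.08 and 1.20.

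**Figure D3:**
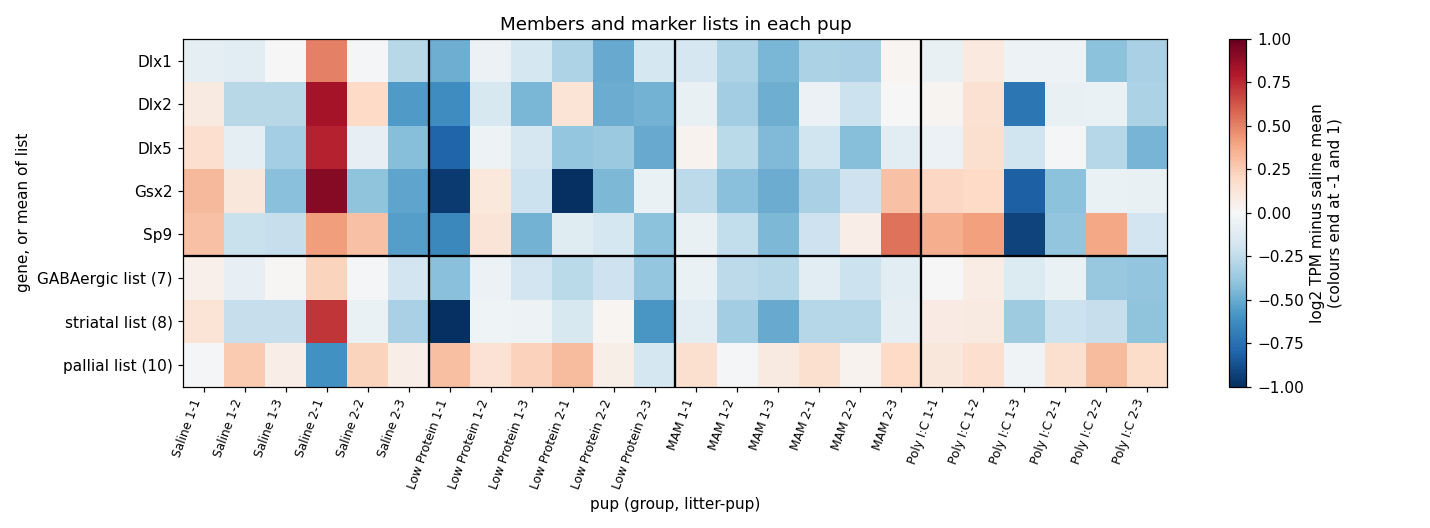
Colour gives the log2 TPM of each gene minus its saline mean, or the mean of a marker list treated the same way (rows), in each of the 24 pups (columns, in groups divided by black lines). Saline 2-1 is high in the 5 genes and in the striatal list and low in the pallial list, and Low Protein 1-1 is low in the 5 genes and has the lowest striatal mean at -1.02.

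Pearson's r of log2 TPM between pairs of members over the 24 pups ran from 0.44 for Dlx1 with Sp9 to 0.84 for Dlx1 with Dlx5, with a median of 0.70 over the 10 pairs. These are descriptions, since pups of a litter share a dam and all values of a pup share a library. Without Saline 2-1 the range was 0.35 to 0.83, with a median of 0.57. The closest pair was then Dlx2 with Sp9, at 0.83, and the adjacent genes Dlx1 and Dlx2 stood at 0.45, down from 0.68. The neighbours on chromosome 3 were thus not the pair most alike. When each pair was taken without the 2 pups farthest from the median of its first gene, r ran from 0.36 to 0.79. The median over the pairs was then 0.48. With the estimated read number of the libraries, r of the log2 values ran from -0.38 for Dlx5 to -0.18 for Sp9.

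Genes expressed further along the GABAergic lineage divided the members. Gad1, which encodes an enzyme that makes GABA, had an r of 0.81 with Dlx1, 0.65 with Dlx5, 0.38 with Gsx2, 0.31 with Dlx2 and 0.01 with Sp9. Without Saline 2-1 the value for Dlx1 was 0.73 and that for Dlx2 was -0.01. Lhx6, a factor of interneurons from the medial ganglionic eminence, had an r of 0.74 with Dlx1 and 0.72 with Dlx5. Its r was 0.56 with Dlx2, 0.33 with Gsx2 and 0.35 with Sp9. Gad2, a second gene for a GABA-making enzyme, had an r of 0.82 with Dlx1, 0.88 with Dlx5 and 0.68 with Gsx2. Its r was 0.68 with Dlx2 and 0.50 with Sp9. For Slc32a1 the values in that order were 0.81, 0.87, 0.59, 0.68 and 0.42.

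**Figure D4:**
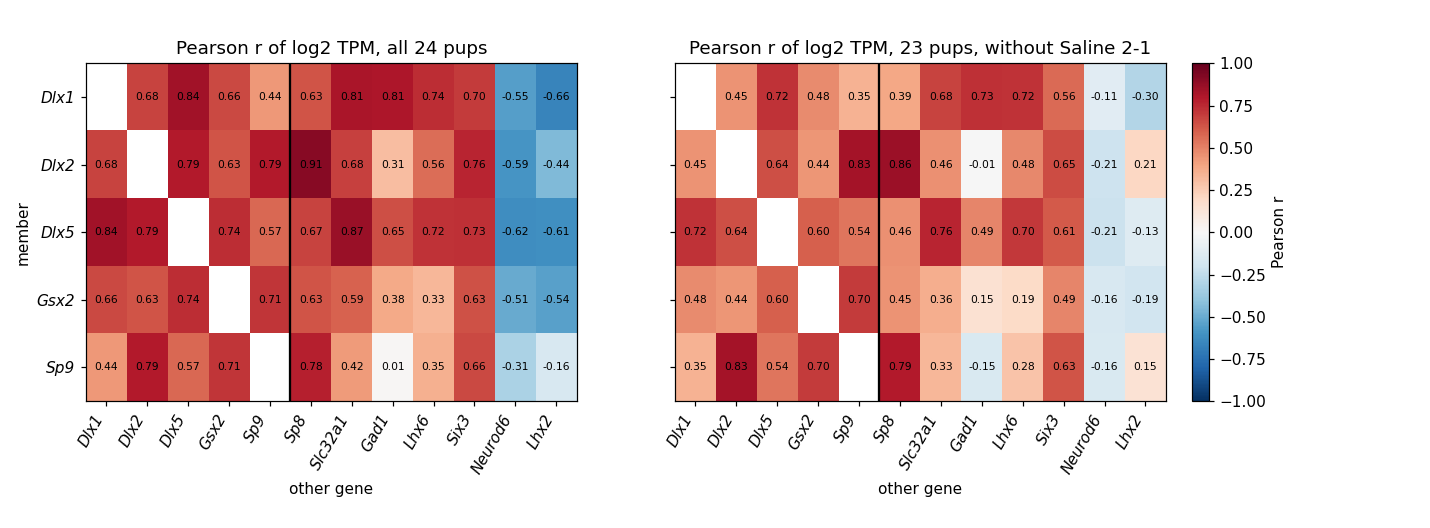
Pearson's r of log2 TPM (colour and printed value) between the 5 genes (rows) and each other or 7 further genes (columns), over all 24 pups at the left and over the 23 pups without Saline 2-1 at the right. Over all 24 pups Gad1 stands at 0.81 with Dlx1 and at 0.01 with Sp9, and Slc32a1 at 0.81 and 0.42. The negative values with the pallial genes Neurod6 and Lhx2 are smaller in size or turn positive without Saline 2-1.

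Among all genes tested, the 10 whose pattern was most like the mean of the 4 members included Sp8 (r = 0.87 over 24 pups), Pou3f4 (0.87), Zfp503 (0.85), Arvcf (0.83) and Six3 (0.81). Without Saline 2-1 the values of Sp8 and Pou3f4 were both 0.79. Taken gene by gene, Dlx1 was most like Olig2 (0.82), Slc32a1 (0.81) and Gad1 (0.81). Dlx2 was most like Sp8 (0.91) and Gsx2 was most like Pou3f4 (0.79), and Slc32a1 (0.87) was among the 3 genes most like Dlx5. Sp9 was most like Zfp444 (0.82), Sox12 (0.81) and Sema6c (0.80), none of which was among the nearest 3 of another member. Hopx had the most opposite pattern to the mean of the 4 members, with an r of -0.77.

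The other genes of the lineage were examined as lists. Of 12 genes that follow Dlx activity in GABAergic neurons, 7 were tested, and 4 of these were lower in Low Protein pups at an unadjusted p under 0.05. Of all genes tested, 4.58%, 8.18% and 5.70% were lower in the Low Protein, MAM and Poly I:C comparisons. In Low Protein pups Lhx6 averaged 1.91 TPM against 2.65 TPM in saline (log2 difference -0.48, limma, adjusted p = 0.455). Gad1 differed by -0.47 and Slc32a1, the vesicular GABA transporter, by -0.41. Without Saline 2-1, Lhx6 still passed and Gad1 and Slc32a1 did not. In MAM pups Lhx6 (-0.34) and Gad1 (-0.43) were lower, and neither passed without Saline 2-1. In Poly I:C pups none of the 7 passed. Cxcr4, a chemokine receptor of migrating interneurons and the most abundant gene of this list, averaged 15.6 TPM over the saline pups and 15.7, 16.1 and 15.3 TPM over those of the Low Protein, MAM and Poly I:C groups.

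Of 6 further progenitor genes of the subpallium, 3 were tested and none passed in any comparison. Of 9 genes of the medial ganglionic eminence, 4 were tested. Lhx6 again was lower in Low Protein and MAM pups, and Sst, the interneuron peptide somatostatin, was lower in Poly I:C pups at 44.5 TPM against 66.9 TPM in saline (log2 difference -0.65, limma, adjusted p = 0.270). Neither of the 2 tested genes of the caudal ganglionic eminence passed in any comparison. Of 20 genes listed as striatal, 8 were tested, and 2 of them, Bcl11b (-0.29) among them, were lower in Low Protein pups. Neither passed without Saline 2-1. In the Low Protein, MAM and Poly I:C comparisons 7, 7 and 6 of the 8 had a difference below 0. Ppp1r1b of this list stood at 0.05, 0.05 and 0.02. Sp8 of this list was also listed for the caudal ganglionic eminence. Whether the listed genes are confined to striatal cells in this tissue was not tested.

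Of the 10 tested pallial genes, 4 were higher in Low Protein pups (Emx2, Lhx2, Neurod1 and Fezf2, by 0.25 to 0.30 on the log2 scale), 1 in MAM pups (Lhx2) and 3 in Poly I:C pups (Pax6, Lhx2 and Neurod1). The others did not pass, and 3, 2 and 2 of the 10 had a difference below 0 in the Low Protein, MAM and Poly I:C comparisons. Of all 5086 genes tested, 186, 156 and 216 were higher at an unadjusted p under 0.05 in these comparisons. The median difference of the list was 0.22, 0.12 and 0.22 in these, and 0.10, 0.0067 and 0.07 without Saline 2-1. Without Saline 2-1 none of these was higher at an unadjusted p under 0.05, and 1 gene of the list was lower in each comparison, Bhlhe22 in Low Protein and MAM pups and Slc17a7 in Poly I:C pups. Over the 24 pups, the mean of the 4 members had an r of 0.86 with the mean of the striatal list and of -0.38 with the mean of the pallial list. Without Saline 2-1 these became 0.78 and 0.19. Blood and meningeal markers also varied with some members. The 4 tested genes of blood, all of them globins, summed to 2050.4 to 3549.8 TPM in saline, 1894 to 4594 TPM in Low Protein, 2335 to 4192 TPM in MAM and 2608 to 4316 TPM in Poly I:C pups, and 1 of them, Hbe1, was higher in MAM pups (0.75). The mean of these genes had an r of -0.55 with Dlx1 and -0.41 with Dlx5, which were -0.72 and -0.57 without Saline 2-1, and its r with the other 3 members lay between -0.18 and -0.10. The 5 tested meningeal genes summed to 8.44 to 15.2 TPM in saline, 4.42 to 39.0 TPM in Low Protein, 7.79 to 18.3 TPM in MAM and 8.13 to 19.2 TPM in Poly I:C pups. Their mean had an r of -0.37 with Dlx1, and of -0.51 without Saline 2-1. Among tested genes of the choroid plexus, meninges, microglia and endothelium, only C1qa of the microglial list passed, higher in MAM pups by 0.39. The part of the pallial, striatal, blood and meningeal content of the tissue in the levels of the members was not tested.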

How the data were processed

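RNA from the hippocampus and neocortex of 24 embryonic rats was sequenced from stranded mRNA libraries. The authors trimmed reads at phred 30, aligned them to rn6 with STAR 2.4.1d, quantified them in Partek Flow and deposited TPM values with an offset of 0.0001; pups were not pooled. The median over the pups of the sum of a pup's values was 70350.1, and 1 read was worth an amount set by genomic span. Only 48.3 to 54.0% of low values came within 0.05 of a whole number of reads, so no count test was run.

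Differences were tested with limma 3.58.1 in R 4.3.3 on log2 TPM, with the 4 groups in 1 fit, for genes whose lowest group mean exceeded 1 TPM. P-values were adjusted by Benjamini and Hochberg over all 5086 genes. Single genes were also tested by exact two-sided permutation (924 splits). The fit was tested on simulated data. The members and lists were chosen with earlier results of these data known. Named genes were all members, up to 4 list genes by lowest p and the most abundant one, and the genes most alike by r. Some results are not reported here. Alternatives covered filters, scaling, pseudocounts, replicate blocks, litter means and leaving out pups or litters. Pup numbers were not used as pairs in the main fit, since same-numbered pups of different groups came from different dams. Of 18 same-numbered pairs, 9 had correlations over 0.1, with a range of -0.23 to 0.47.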

Additional observations from a re-analysis of the deposited data

Results flagged for a closer look

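Within groups of 6 pups, 20 combinations of gene and group were checked for a pup far from the others, and chance flags about 1 group in 20. In the saline group the highest Dlx1 pup, Saline 2-1, stood apart from the next pup by 0.651 of the group's whole range. In the MAM group the highest Gsx2 pup, MAM 2-3, stood apart by 0.633 of the range. Both exceeded Dixon's 95% critical value for 6 samples.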

How the results depend on the processing

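Of 654 values of single members against saline recomputed under 45 other settings, 620 kept direction and side of the 0.05 threshold. Another 16 lost the call, 9 gained it and 9 changed sign. Leaving out a pup or litter of a group not compared cannot move a difference, so the direction of such values was fixed in advance. The calls were lost in 3 of 45 settings for Dlx1 and 5 for Dlx5 in Low Protein pups, and in 8 for Dlx1 in MAM pups. None of the 537 adjusted p-values from limma passed, the lowest being 0.285. Unless given, the share of all genes called at a setting does not stand beside the counts in this section, so they are not results about the members. The count of members called in Low Protein pups became 4 on litter means, where the adjusted limma p of Dlx2 and of Sp9 was 0.854. It became 1 with the 12 pups compared alone. For MAM it became 2 on litter means and 0 with median of ratios scaling, which also turned the split of all genes from 416 lower and 156 higher to 199 and 306. Litter means gave 1 member for Poly I:C against Low Protein and 1 in the F test. Leaving out pups or litters gave 0 to 3 members for Low Protein, 0 to 1 for MAM, 0 to 1 for Poly I:C against Low Protein, and 0 to 2 in the F test, and moved the Poly I:C median between -0.22 and 0.0044. Besides Saline 2-1, the Low Protein count fell to 1 without Low Protein 1-1 and to 0 without the second saline or second Low Protein litter. The Dlx1 call for MAM was lost without MAM 1-2, 1-3, 2-1 or 2-2, the first MAM litter or the second saline litter.

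Sign changes arose only on leaving out pups or litters. Sp9 then ran from -0.26 to 0.13 for MAM, and for Poly I:C Sp9 ran from -0.17 to 0.11, Dlx5 from -0.26 to 0.010 and Gsx2 from -0.27 to 0.022. With a replicate block on the pup number the count was 3 for Low Protein, 1 for MAM and 0 for Poly I:C; 5 of the 18 pairs correlated best with their own number. The causes were not tested. Gsx2, at an estimated 84.6 reads, carries a counting error of about 10.9%.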
